A study of Mus musculus with 2 samples.

Results

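MicroRNA genes of blood cells and microglia were examined in microRNA sequencing libraries of mouse hippocampus. The set held 8 genes of the 2202 in the count files. They were named by their known cell type and matched by gene symbol, with no measured value in the rule. The red-cell genes were Mir451a, Mir144 and Mir486. The white-cell and microglia genes were Mir150, Mir155, Mir142, Mir223 and Mir146, where Mir146 is the gene of miR-146a.

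All libraries came from 1 group, male B6CASTF1/J mice (first-generation hybrids of C57BL/6J and CAST/EiJ) at an age of 10 days, with no treatment given in the labels. The labels call the tissue a layer of hippocampus, list 3 males for each of the 2 biological replicates with different animal numbers, and give both replicates 1 donor identifier. Whether the replicates share a source beyond the strain was not analysed here, so the spread between them may in part be technical. With 1 group there was no contrast between conditions, and each test below compares the 2 libraries only. Replicate 1 held 4815761 counts on microRNA genes and replicate 2 held 3495401, and levels are given in CPM, counts per 1000000 of these. The abundant neuronal microRNA gene Mir139 lay at 31820 and 57346 CPM in replicates 1 and 2, while the 3 Mir124a genes, whose reads fit several places, held 17 counts in each library.

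A microRNA is cut from a hairpin precursor and guides an Argonaute protein to transcripts that pair with its seed, bases 2 to 8. Mir144 and Mir451a are made from a shared precursor transcript that the erythroid factor GATA1 switches on, and miR-451a is very abundant in red cells. It is cut by Argonaute 2 itself, without Dicer. Mir142 and Mir223 are typical of blood-forming cells, with Mir223 highest in neutrophils and other myeloid cells. Mir150 is abundant in mature lymphocytes, and Mir155 and Mir146 are induced by inflammatory signals in macrophages and microglia, the resident macrophages of the brain. Brain tissue holds blood in its vessels unless it is flushed out, and the labels name no such step. In bulk tissue, fewer cells of a type and less microRNA per cell cannot be told apart.

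The mature sequences are shown because they identify what a read of a listed arm can be and which genes could share reads or targets. Of the 8 genes, 7 had at least 1 mature sequence in the RefSeq table (GRCm38.p6), 12 sequences in all. Mir486 had none there, and for Mir150 only the 3p arm was listed. The sequences are written 5′ to 3′ with the seed in capitals, 1 for each of the 7 genes and both arms of Mir142. Added to them is miR-146b-5p from the related gene Mir146b.
miR-451a: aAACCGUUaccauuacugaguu
miR-144-3p: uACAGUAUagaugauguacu
miR-150-3p: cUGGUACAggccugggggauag
miR-155-5p: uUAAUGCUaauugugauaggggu
miR-142a-5p: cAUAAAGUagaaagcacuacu
miR-142a-3p: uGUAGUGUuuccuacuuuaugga
miR-223-3p: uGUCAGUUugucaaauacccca
miR-146a-5p: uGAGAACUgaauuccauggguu
miR-146b-5p: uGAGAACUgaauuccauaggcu

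The 12 mature sequences of these 7 genes had 12 different seeds. Of these seeds, 11 occurred in no other mature sequence of the table, which lists 1679 names. The exception was miR-146a-5p, which has the seed of miR-146b-5p. These sequences are identical at 20 of 22 positions and differ by G18A and U21C (miR-146a-5p first, positions counted from its 5′ end). GC content ran from 30.0% in miR-144-3p to 63.6% in miR-150-3p. The files count reads per hairpin, so the arms were not separated and no level below belongs to 1 arm.

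The hairpins of Mir144 and Mir451a, the neighbouring red-cell pair, are shown because they differ in where the mature sequence lies. Both are on the plus strand of chromosome 11 (mm10), Mir144 at chr11:78073005-78073070 and Mir451a at chr11:78073170-78073241. Capitals mark the mature sequences.
Mir144 hairpin: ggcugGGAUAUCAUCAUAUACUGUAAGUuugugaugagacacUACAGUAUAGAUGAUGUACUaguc
Mir451a hairpin: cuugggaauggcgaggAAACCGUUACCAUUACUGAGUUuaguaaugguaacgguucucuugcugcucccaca
Mir144 has a mature sequence in each arm, at bases 6 to 28 and 43 to 62 of its 66 bases. Mir451a has 1, at bases 17 to 38 of its 72 bases.

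**Figure D1:**
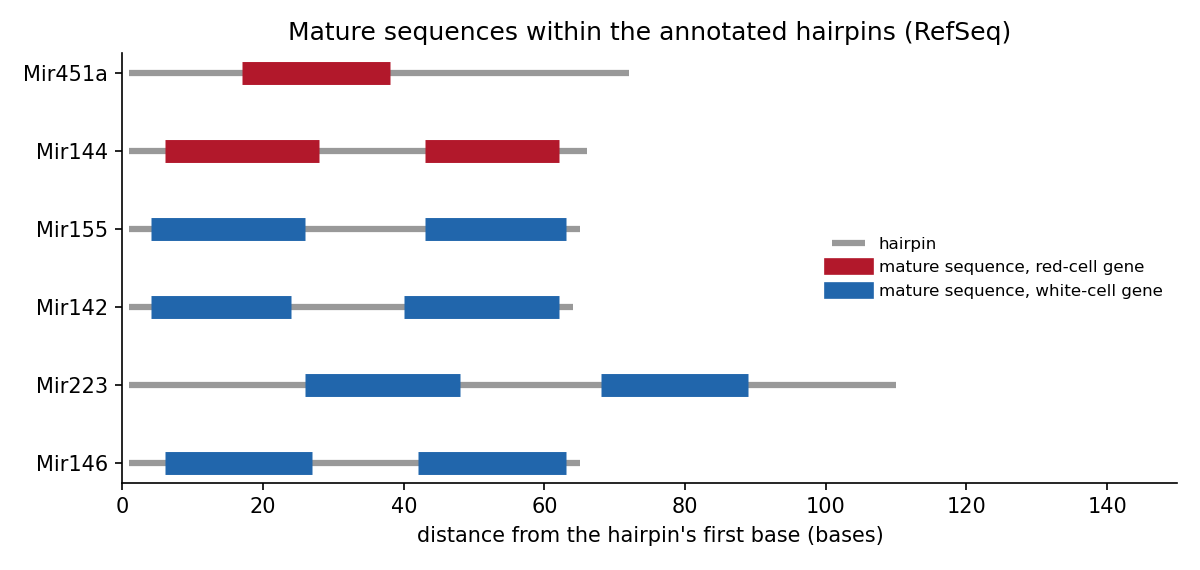
Annotated hairpins of 6 of the 8 genes (horizontal axis, distance from the first base of the hairpin in bases), with the mature sequences as thick bars, red for red-cell and blue for white-cell and microglia genes. Mir451a has 1 mature sequence, at bases 17 to 38, and each of the other 5 genes drawn has 2.

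The 8 genes lie at 7 places in the genome, and 4 of them are on chromosome 11, which holds 6.22% of the 2202 genes. No host gene on the same strand was annotated for Mir451a, Mir144, Mir150 (chromosome 7, 45121757-45121821) or Mir146 (chromosome 11, 43374397-43374461, minus strand). Mir486 (chromosome 8, 23142555-23142682) lies in an intron of Ank1, the gene of erythrocyte ankyrin. Mir142 (chromosome 11, 87756864-87756927) lies in an intron of the noncoding gene Mir142hg, Mir155 (chromosome 16, 84714140-84714204) in an exon of Mir155hg, and Mir223 (chromosome X, 96242817-96242926) in an exon of the noncoding gene F630028O10Rik. Mir144 and Mir451a are 99 bases apart, while the nearest other microRNA gene on the strand of any remaining gene of the set is 51481 bases away or more.

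For 3 genes another microRNA gene is annotated on the opposite strand, and the reads came almost wholly from the strand of the member. Mir451b, opposite Mir451a, had 0 counts in both libraries, which allows up to 0.623 CPM in replicate 1 and 0.858 CPM in replicate 2 (3 counts of the library total, counting error only). Mir451a therefore lay at least 1835-fold above it in replicate 1 and at least 48.3-fold in replicate 2. Mir142b, opposite Mir142, had 0 and 1 counts beside 199 and 115 of Mir142. Mir3107, opposite Mir486, had 7 and 3 counts beside 152 and 99 of Mir486. Mir486 and Mir3107 share at least 20 consecutive bases, as do Mir146 and Mir146b, so reads that fit both are outside the counts and these levels can lie too low.

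All 8 genes reached 2 CPM in both libraries, as 442 of the 2202 genes did. Their summed share of counts was 0.236% in replicate 1 and 0.187% in replicate 2. What made up that small share differed between the libraries. In replicate 1, Mir451a made up 48.3% of it (exact Clopper-Pearson 95% interval 47.4 to 49.3%) and Mir146 27.1% (26.3 to 27.9%). In replicate 2, Mir451a made up 2.21% (1.87 to 2.60%), while Mir146 made up 47.5% (46.3 to 48.8%) and Mir150 41.4% (40.2 to 42.6%). All intervals here cover counting error only.

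**Figure D2:**
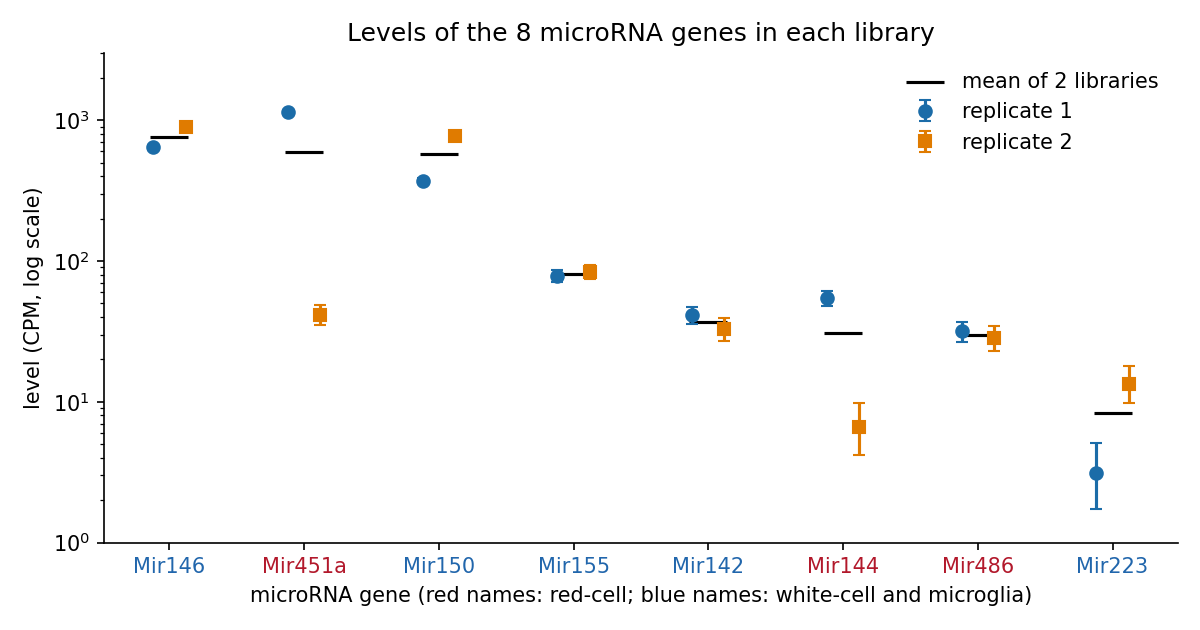
Level of each gene (vertical axis, CPM on a log scale) in replicate 1 (blue circles) and replicate 2 (orange squares), with exact 95% counting intervals and the mean as a black dash, ordered by mean. Mir451a lay at 1143 and 41.5 CPM and Mir144 at 54.6 and 6.58 CPM in replicates 1 and 2, while Mir155 lay at 78.3 and 84.1 CPM.

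Of the 3 red-cell genes, Mir451a and Mir144 were higher in replicate 1, while the intervals of Mir486 overlapped. Mir451a had 5505 counts in replicate 1 and 145 in replicate 2, levels of 1143 CPM (1113 to 1174) and 41.5 CPM (35.0 to 48.8). It ranked 101st of all genes in replicate 1 and 250th in replicate 2. Mir144 had 263 and 23 counts, levels of 54.6 CPM (48.2 to 61.6) and 6.58 CPM (4.17 to 9.87). The intervals of the libraries are far apart for both genes. Mir486, by contrast, had 152 and 99 counts, 31.6 CPM (26.7 to 37.0) and 28.3 CPM (23.0 to 34.5). Reads of Mir486 that also fit Mir3107 are outside these counts, so its comparison covers only the reads left.

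Over both libraries the mean of Mir451a was 592 ± 779 CPM, of Mir144 30.6 ± 34.0 CPM and of Mir486 29.9 ± 2.29 CPM (SD, n = 2 for each). For Mir451a and Mir144 the SD exceeds the mean, so a mean level describes neither library. The red-cell genes together took 0.123% of counts in replicate 1 (0.120 to 0.126%) and 0.00764% in replicate 2 (0.00675 to 0.00861%), a 16.1-fold difference. Most of that sum was Mir451a, with 93.0% of the red-cell counts in replicate 1 and 54.3% in replicate 2. Without it, an alternative chosen after seeing the data, Mir144 and Mir486 together held 415 and 122 counts, a 2.47-fold difference in share.

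Among the white-cell and microglia genes, Mir146 and Mir150 were the most abundant. Mir146 had 3083 counts in replicate 1 and 3114 in replicate 2, levels of 640.2 CPM (618 to 663) and 891 CPM (860 to 923). Its related gene Mir146b had only 15 and 12 counts, so Mir146 was counted 206 times as often in replicate 1 (124 to 368) and 259.5 times in replicate 2 (148 to 503). Mir150 had 1793 and 2712 counts, levels of 372 CPM (355 to 390) and 776 CPM (747 to 806). Both genes were higher in replicate 2, and neither gene's intervals overlap.

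Mir155, Mir142 and Mir223 were rarer. Mir155 had 377 and 294 counts, 78.3 CPM (70.6 to 86.6) and 84.1 CPM (74.8 to 94.3). Mir142 had 199 and 115 counts, 41.3 CPM (35.8 to 47.5) and 32.9 CPM (27.2 to 39.5). The intervals of the libraries overlap for both. Mir223 had 15 and 47 counts, 3.11 CPM (1.74 to 5.14) and 13.4 CPM (9.88 to 17.9), and was higher in replicate 2 with intervals that do not overlap. It was the lowest of the 8 genes in replicate 1, and in replicate 2 Mir144 lay below it.

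The mean levels were 765.5 ± 177 CPM for Mir146, 574 ± 285 for Mir150, 81.2 ± 4.12 for Mir155, 37.1 ± 5.96 for Mir142 and 8.28 ± 7.31 for Mir223 (SD, n = 2 for each). The coefficient of variation between the libraries ran from 5.07% for Mir155 and 7.65% for Mir486 up to 132% for Mir451a. Reads of this library type are short RNAs counted whole, so levels were not divided by hairpin length, and equal capture of different microRNAs was not analysed. Ordered by mean, the genes were Mir146, Mir451a, Mir150, Mir155, Mir142, Mir144, Mir486 and Mir223. Of the 7 neighbouring pairs in this order, 4 had overlapping ranges of mean ± SD: Mir146 with Mir451a, Mir451a with Mir150, Mir142 with Mir144, and Mir144 with Mir486. The steps from Mir150 to Mir155, from Mir155 to Mir142 and from Mir486 to Mir223 held in both libraries.

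The libraries were then compared gene by gene, by a two-sided exact binomial test that took the library totals as given, with Benjamini-Hochberg adjustment over the 540 genes with at least 10 counts. To pass, a gene needed both an adjusted p under 0.05 and a log2 ratio (replicate 2 over replicate 1) of 1 or more in size. All 8 genes were tested and 4 passed, where 18.7% of all tested genes did. Lower in replicate 2 were 2 genes of the set, Mir451a and Mir144, beside 7.22% of all genes. Higher there were 2, Mir150 and Mir223, beside 11.5% of all genes. The median log2 ratio was -3.02 over the 3 red-cell genes and 0.48 over the 5 white-cell and microglia genes, beside 0.17 over all 540. With 8 genes, these counts and medians are a description.

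Mir451a had a log2 ratio of -4.78 (95% interval -5.03 to -4.55), that is 27.5-fold lower in replicate 2, with a binomial p too small for the software to represent. Only 2 of the 540 genes had a lower ratio, Mir1247 with 156 and 1 counts and Mir741 with 30 and 0, both named after their values were seen. Mir144 had a log2 ratio of -3.02 (-3.74 to -2.44; adjusted p = 5.19e-37), which is 8.14-fold lower. Mir486 had -0.15 (-0.54 to 0.22; adjusted p = 0.517) and did not pass.

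On the other side, Mir223 had a log2 ratio of 2.08 (1.25 to 3.06; adjusted p = 2.48e-07), 4.22-fold higher in replicate 2. Mir150 had 1.06 (0.97 to 1.15; adjusted p = 3.80e-131), just above the minimum ratio, and lay under it with DESeq2 size factors (0.89) and TMM sizes (0.99). Mir146 had 0.48 (0.40 to 0.55; adjusted p = 8.58e-38), below the minimum ratio. Mir142 had -0.33 (-0.67 to 0.01; adjusted p = 0.0873). Its binomial adjusted p fell to 0.0359 with TMM sizes (log2 ratio -0.40) and 0.00640 with DESeq2 size factors (-0.50), still under the minimum ratio. Mir155 had 0.10 (-0.12 to 0.33; adjusted p = 0.480), and its sign turned with DESeq2 size factors (-0.067).

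These p-values hold counting error only, while the libraries differed across all genes. The median log2 ratio of all 540 genes, 0.17 by library totals, was 0.10 by TMM and 0.00094 by DESeq2 size factors. The share of passing genes that were higher in replicate 2 moved with it, from 61.4% to 53.1% and 44.4%. The median absolute log2 ratio was 0.54 over all tested genes and 0.77 over the 8 genes, of which 4 lay above 0.54. The biological coefficient of variation that edgeR estimated from these libraries over 427 genes was 38.6%. With that spread in a negative binomial exact test, 1.30% of the 540 genes passed, and of the 8 genes only Mir451a did (adjusted p = 1.05e-04). Mir144 had an adjusted p of 0.0541, Mir223 of 0.609 and Mir150 of 1 in that test, so these differences were not told apart from the spread that all genes showed between the libraries.

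**Figure D3:**
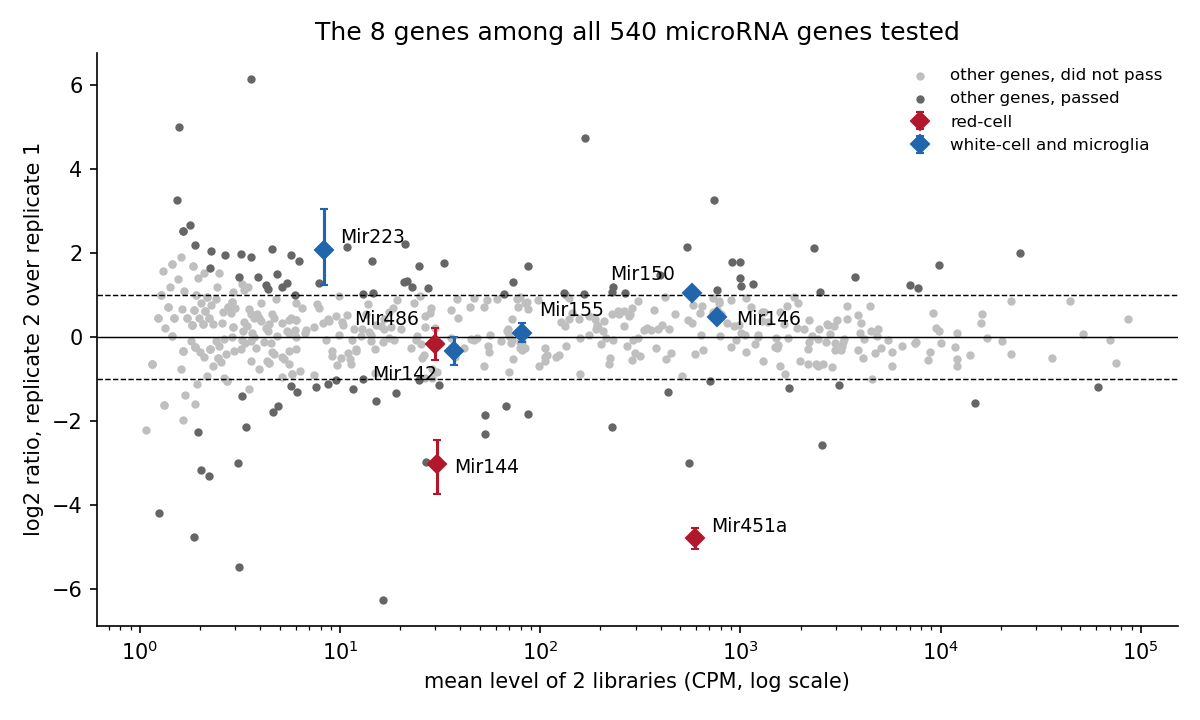
Log2 ratio of replicate 2 over replicate 1 (vertical axis) against mean level (horizontal axis, CPM on a log scale) for the 540 genes tested. Dark grey points passed the binomial test, dashed lines mark log2 ratios of -1 and 1, and diamonds with exact 95% intervals are the red-cell (red) and white-cell and microglia (blue) genes. Mir451a, at -4.78, lies below every gene plotted at a mean above 100 CPM, and the small ratios of Mir155 and Mir486 are close to 0 (that of Mir155 turns sign with DESeq2 size factors).

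Ratios of counts within a library do not depend on the scaling between libraries. Mir451a was counted 20.9 times as often as its neighbour Mir144 in replicate 1 (18.5 to 23.8) and 6.30 times as often in replicate 2 (4.04 to 10.3). The intervals do not overlap, so the libraries differed more in Mir451a than in its neighbour Mir144 beyond counting error. Mir451a was counted 36.2 times as often as Mir486 in replicate 1 (30.8 to 42.8) and 1.46 times in replicate 2 (1.13 to 1.91). Mir144 was counted 1.73 times as often as Mir486 in replicate 1 (1.41 to 2.13) and 0.232 times in replicate 2 (0.141 to 0.369), so the order of their counts turned. The counts of Mir486 leave out reads that also fit Mir3107, so the ratios to Mir486 can lie too high.

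The red-cell genes together held 1.08 counts for each count of the white-cell and microglia genes in replicate 1 (1.04 to 1.12) and 0.0425 in replicate 2 (0.0375 to 0.0480). Within the white-cell and microglia genes, each ratio given next shifted less than this ratio of red-cell to white-cell and microglia counts. Mir146 stood at 1.72 times Mir150 in replicate 1 (1.62 to 1.82) and 1.15 times in replicate 2 (1.09 to 1.21). The ratios to Mir223, which rest on 15 and 47 counts of that gene, were 25.1 (15.0 to 45.4) and 6.26 (4.59 to 8.70) for Mir155. They were 13.3 (7.85 to 24.2) and 2.45 (1.73 to 3.51) for Mir142.

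**Figure D4:**
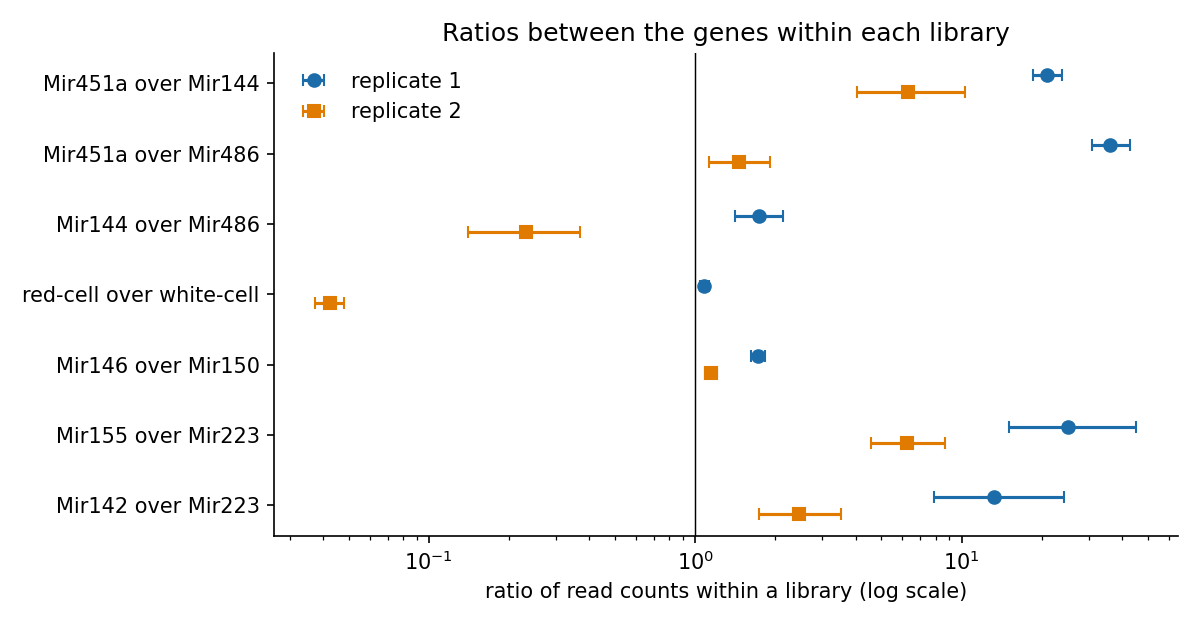
Ratios of read counts between genes of the set (horizontal axis, log scale) within replicate 1 (blue circles) and replicate 2 (orange squares), with exact 95% counting intervals. The ratio of red-cell to white-cell and microglia counts was 1.08 in replicate 1 and 0.0425 in replicate 2, and no pair of intervals overlaps.

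Further microRNAs tied to blood cells were read from a list of 16 genes, of which 15 matched a symbol in the files and 13 were tested. Of these, 4 passed, Mir147, Mir511 and Mir21a higher and Mir16-1 lower in replicate 2, where 18.7% of all tested genes passed, 11.5% higher and 7.22% lower. The list's median log2 ratio was 0.21 beside 0.17 over all genes. Mir147, which is induced in activated macrophages, had 6 and 18 counts and a log2 ratio of 1.97 (adjusted p = 0.00307). Mir511, in the macrophage mannose receptor gene, had 13 and 21 counts and a ratio of 1.13 (adjusted p = 0.0425). Both rest on few counts.

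Mir21a, which is high in activated myeloid cells but also in many other cells, had 450.0 and 1541 CPM and a log2 ratio of 1.78. Mir16-1, whose mature miR-16 is abundant in red cells among others, had 620 and 249.8 CPM and a ratio of -1.31. Its copy Mir16-2, from which shared reads cannot be assigned, had 74.5 and 71.0 CPM and a ratio of -0.07. None of these 4 genes passed the negative binomial test, where their adjusted p-values were 0.868 for Mir147, 1 for Mir511, 0.609 for Mir21a and 1 for Mir16-1.

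The other tested genes of that list did not reach the minimum ratio. Mir221 and Mir222, which restrain the Kit receptor in red-cell precursors, had log2 ratios of 0.43 and 0.75. Mir210, the hypoxia microRNA, had 0.43, Mir191 0.21, Mir146b 0.15 and Mir342, in an intron of Evl and expressed in brain as well as in blood cells, -0.55. Mir92-1 and Mir92-2, which share bases, had -0.25 and -0.50.

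Lists for other cell types also differed between the libraries, and their part in the red-cell result was not tested. The endothelial gene Mir126a had levels of 14888 and 9301 CPM in replicates 1 and 2, which is a log2 ratio of -0.68 and did not reach the minimum, while Mir126b had 0 counts in both. Per count of Mir126a there were 0.0768 counts of Mir451a in replicate 1 (0.0747 to 0.0789) and 0.00446 in replicate 2 (0.00376 to 0.00525). Both genes were lower in replicate 2, with log2 ratios of -4.78 for Mir451a and -0.68 for Mir126a. Whether the libraries differed in vessel content was not tested. The mural list took 0.396% and 0.439% of counts, of which Mir143 held 96.5% and 92.7%. Its other gene, Mir145a, passed the binomial test as higher in replicate 2, with a log2 ratio of 1.18 (adjusted p = 2.57e-65), but not the negative binomial test (adjusted p = 1).

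The choroid plexus and ciliated cell list, led by Mir449a, took 0.258% and 0.533%, and none of its 7 genes was at 0 in both libraries. Of its 6 tested genes 3 passed as higher in replicate 2, where 11.5% of all genes did. These were Mir204, Mir211 and Mir34b, and none of them passed the negative binomial test (adjusted p = 0.609, 0.873 and 0.685). The oligodendrocyte list, led by Mir219a-2, took 0.104% and 0.174%, with Mir219b at 0 in both. Mir219a-1 of that list, which shares bases with Mir219a-2, went the other way, with 185 and 68 counts and a log2 ratio of -0.97, under the minimum. The neuronal list took 5.01% and 8.16%, of which Mir139 held 63.6% and 70.3%. Without Mir139 its share was 1.33-fold larger in replicate 2. Of its 7 tested genes 1 passed the binomial test as higher in replicate 2, beside 11.5% of all genes. That gene was Mir132, with a log2 ratio of 1.25, and it did not pass the negative binomial test. Mir128-1 and Mir128-2 had log2 ratios of 0.74 and 0.96, under the minimum, while those of Mir138-1 and Mir138-2 were below 0 (-0.69 and -0.28). The white-cell and microglia genes, at 0.114% (0.111 to 0.117%) and 0.180% (0.175 to 0.184%), had a 1.58-fold larger share in replicate 2. The fold was 2.07 for the choroid plexus and ciliated cell list, 1.68 for the oligodendrocyte, 1.63 for the neuronal and 1.11 for the mural list. The shares of the red-cell genes and of the endothelial list were smaller in replicate 2, at 0.0621 and 0.625 times those of replicate 1.

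**Figure D5:**
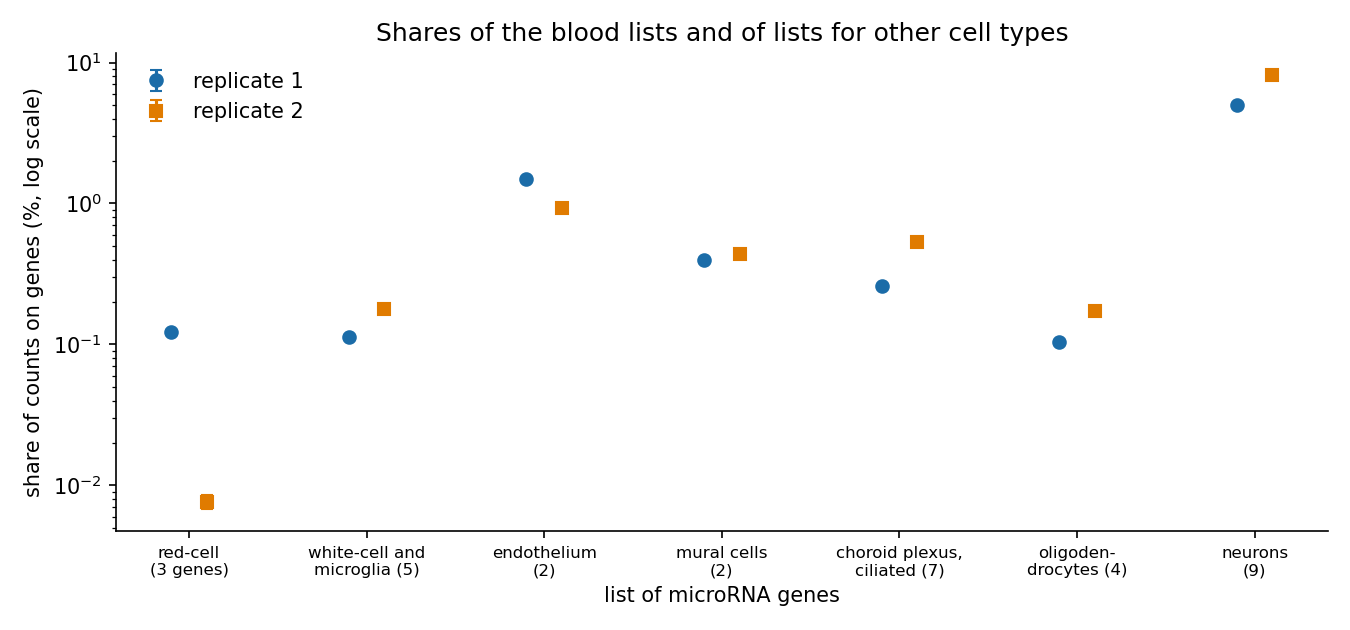
Share of counts on genes (vertical axis, percent on a log scale) for each list of microRNA genes in replicate 1 (blue circles) and replicate 2 (orange squares), with exact 95% counting intervals that are mostly smaller than the symbols. The red-cell share was 0.123% and 0.00764%, while the white-cell and microglia share was 0.114% and 0.180%.

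Genes outside the set with a difference most like that of Mir451a were sought among those with a mean of at least 100 counts, by the absolute difference of the log2 ratios over 2 libraries. The 3 nearest were Mir185, at -2.99 and 1.79 away, Mir3074-1, at -2.96 and 1.82 away, and Mir543, at -2.56 and 2.22 away. Mir185 had 987 and 124 CPM, Mir3074-1, which shares bases with Mir3074-2, 47.8 and 6.01 CPM, and Mir543 4395 and 744 CPM. Over so few libraries this likeness is a match of a single ratio.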

How the data were processed

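Small RNA reads (sizes under 30 nt, per the labels) were counted in 2 libraries. The deposited values are raw read counts per microRNA gene. Per the submitters' notes, each file came from 1 library, with build mm10 and GENCODE M21. The sources used here do not name the aligner, the counter or their versions. The sense column was used. Lines of totals (37.7% and 39.8% of reads fitted several places) were left out. All 2202 identifiers matched GENCODE M21. Sequences came from RefSeq (GRCm38.p6).

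CPM, Clopper-Pearson 95% intervals, binomial tests and Benjamini-Hochberg adjustment were computed in Python 3.11.15 with SciPy 1.17.1. Log2 ratios had 0.5 counts added. edgeR 4.0.16 gave TMM factors, the dispersion and the negative binomial test, and DESeq2 1.42.0 size factors (R 4.3.3). Genes sharing at least 20 consecutive bases in sense orientation were marked as copies.

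The genes, lists and tests were chosen with earlier results of these data known. By the rule for naming, genes named were the 8 members, tested genes of the related blood list and opposite-strand partners, the 3 genes nearest Mir451a, and the leading gene of each other list. Further genes of the other lists were named outside this rule, with their values known, as were Mir1247 and Mir741. The listed name Mir486b matched no symbol. In GENCODE M21 this gene is named Mir3107, and it was reported as the opposite-strand partner of Mir486 rather than in the related blood list. Alternatives covered scaling, count filters, the ratio minimum, the error model, unstranded counts, counts added, copies, the denominator, detection thresholds and each replicate.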

Additional observations from a re-analysis of the deposited data

Results flagged for a closer look

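In the column of the opposite strand, Mir486 had 7 counts in replicate 1, above the 3 counts set as the limit for a count of 0. These are the 7 sense counts of Mir3107, and replicate 2 had 3. No other gene of the 8 had more than 3 counts on the opposite strand in either library.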

How the results depend on the processing

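Genes that differed numbered 101, and 67 with at least 50 counts, 301 by the adjusted p alone and 7 in the negative binomial test. Genes of the set that differed numbered 4 (Mir451a, Mir144, Mir150 and Mir223), beside 18.7% of all tested genes. In the negative binomial test 1 did (Mir451a), beside 1.30%. With TMM sizes or DESeq2 size factors 3 genes of the set differed, where Mir150 was lost, beside 17.8% and 18.3% of all tested genes. By the adjusted p alone 5 of the 8 did, where Mir146 was added, which is near the 55.7% of all tested genes. With unstranded counts 3 of the 5 that could be tested differed, beside 18.7%. There Mir451a, Mir486 and Mir142 had 0 counts and could not be tested. These are the 3 genes of the set with another microRNA gene on the opposite strand. The log2 ratio of Mir155 was -0.067 with DESeq2 size factors, and no other gene of the 8 changed sign under the scalings, counts added or unstranded counts for which it was tested. The white-cell and microglia share, 0.147% on average, was 0.0706% with reads that fit several places in the denominator and 0.0701% without Mir146, which shares bases with Mir146b. It ran from 0.114% to 0.180% with each replicate left out. The red-cell share, 0.0653% on average, ran from 0.00764% without replicate 1 to 0.123% without replicate 2. It was 0.0330% with the wider denominator and 0.00605% without Mir451a, an alternative chosen after seeing the data. With unstranded counts it was 0.00325%, which came from Mir144 alone. Detection of the 8 genes fell to 6 at 10 CPM, since Mir223 and Mir144 each lay under it in 1 library, and was 8 at 1 CPM. A ratio between the libraries could not be had with a replicate left out. Depth limits Mir223 in replicate 1 (15 counts) and Mir144 in replicate 2 (23 counts).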
